A study of Rattus norvegicus and Mus musculus with 17 samples.

Results

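The cytochrome P450 genes described here are the rows of 3 deposited liver tables whose gene symbol begins with Cyp and a digit, without Cyp7a1, Cyp7b1, Cyp8b1 and Cyp27a1, which make bile acids, and Cyp51, which makes cholesterol. They came to 81 distinct symbols. The table of diethylnitrosamine (DEN) mouse tumours held 50 of them among 4649 genes, the table of the rat Morris hepatoma 37 among 9082, and the table of regenerating rat liver 3 among 2093.

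Cytochrome P450 enzymes are heme proteins of the endoplasmic reticulum, or for a few members of mitochondria, that oxidise drugs, toxins, steroids, fatty acids and vitamin D with electrons from P450 reductase. Hepatocytes express most of the Cyp1, Cyp2 and Cyp3 enzymes, many of them mainly around the central vein, under receptors such as CAR, PXR and the aryl hydrocarbon receptor. In rodents several members differ between the sexes because male and female livers receive growth hormone in different patterns.

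All animals were male. C57BL/6 mice had received 50 mg/kg DEN, a liver carcinogen, at 14 days of age and 2 mg/kg TCPOBOP, a CAR activator, 30 days later. The group before tumours gave liver at 5 months of age (n = 3) and the group with tumours at 8 months (n = 3). Both mouse groups had thus received both agents. They differed in age and in the time since each agent as well as in tumours. Untreated ACI rat liver (n = 3) was the control for both rat tables. The Morris hepatomas (n = 4) grew for 2 weeks in the liver of 10-week-old ACI rats from injected MH3924a cells, which are a single transplantable line. In ACI rats of 10 to 12 weeks, regenerating liver was taken 24 hours after removal of most of the organ (partial hepatectomy, n = 4). The labels do not state that each library came from a separate animal, so the p-values here speak only of the spread between libraries, which may be technical. In bulk tissue fewer cells of a type and less RNA per cell cannot be told apart.

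Each table was limited by the authors to genes whose deposited p-value was under 0.05, so for an unlisted gene no level can be given. The header of that column names a Holm correction, yet all values equal, within 1%, an unadjusted two-group test with equal variances on RPKM. Values are RPKM, and 0.001, the lowest value listed, was read as 0. Within each group the libraries had 0.88 to 1.14 times the depth of library 1, read from the steps of low values; absolute depth is unknown. Fold changes are log2 of RPKM + 1 with their standard error, on which changes of genes with low values come out too small. The tables held 47 of 95 annotated protein-coding mouse genes that fit the rule (49.5%), against 21.2% of all coding genes for the same table. The shares were 43.5% of 85 rat genes against 39.2% for the hepatoma and 3.5% against 9.0% for regenerating liver. No mouse Cyp2b gene was listed out of 5 annotated, and 1 rat gene of 8. As a check of the labels, Alb, the main hepatocyte product, stood at 20865, 24972 and 28261 RPKM before tumours and 86115, 78943 and 84182 with tumours. It was 67213, 60249.7 and 48189.7 in control rat liver and 574, 19.0, 10944 and 10924 in hepatoma libraries 1 to 4. Alb RNA was therefore abundant in every DEN library and nearly missing from hepatoma library 2. Hepatoma libraries 3 and 4 held more of it than 1 and 2.

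The first comparison asked which P450 genes differed between DEN livers with and before tumours. Most of the main drug-metabolising P450 genes fell, among them Cyp3a11, Cyp2e1, Cyp1a2 and 10 of 12 tested Cyp2c genes, while a small set headed by Cyp2a4 rose. Of 50 listed members 44 passed the filter of 1 RPKM in at least 3 libraries, and of these 34 fell, 7 rose and 3 did not pass the test. Over all 3684 tested genes 49.5% fell and 17.9% rose. By means, 39 of the 50 members were lower and 11 higher, and in all 50 the libraries of the groups did not overlap. That count has no weight of its own, since the tables were selected for a difference, and groups did not overlap in 71.4% of all listed genes downward and 28.6% upward. Tested members had a median log2 fold change of -1.86, against -0.56 for all tested genes. With library medians set equal the medians were -1.47 and -0.16. The members stood -1.30 and -1.31 from the median of all genes in the first and second case. Setting the medians equal shifts all genes of a library by the same amount, so this distance could not change and has no weight of its own. The same scaling turned the calls over all genes from 658 higher and 1823 lower to 912 and 614, and those of the members to 8 higher and 25 lower. Of the 34 members that fell, 30 fell by at least 2-fold and 21 by at least 4-fold on the scale of the test. Without library 3 with tumours 4 members passed the test upward in place of 7.

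**Figure D1:**
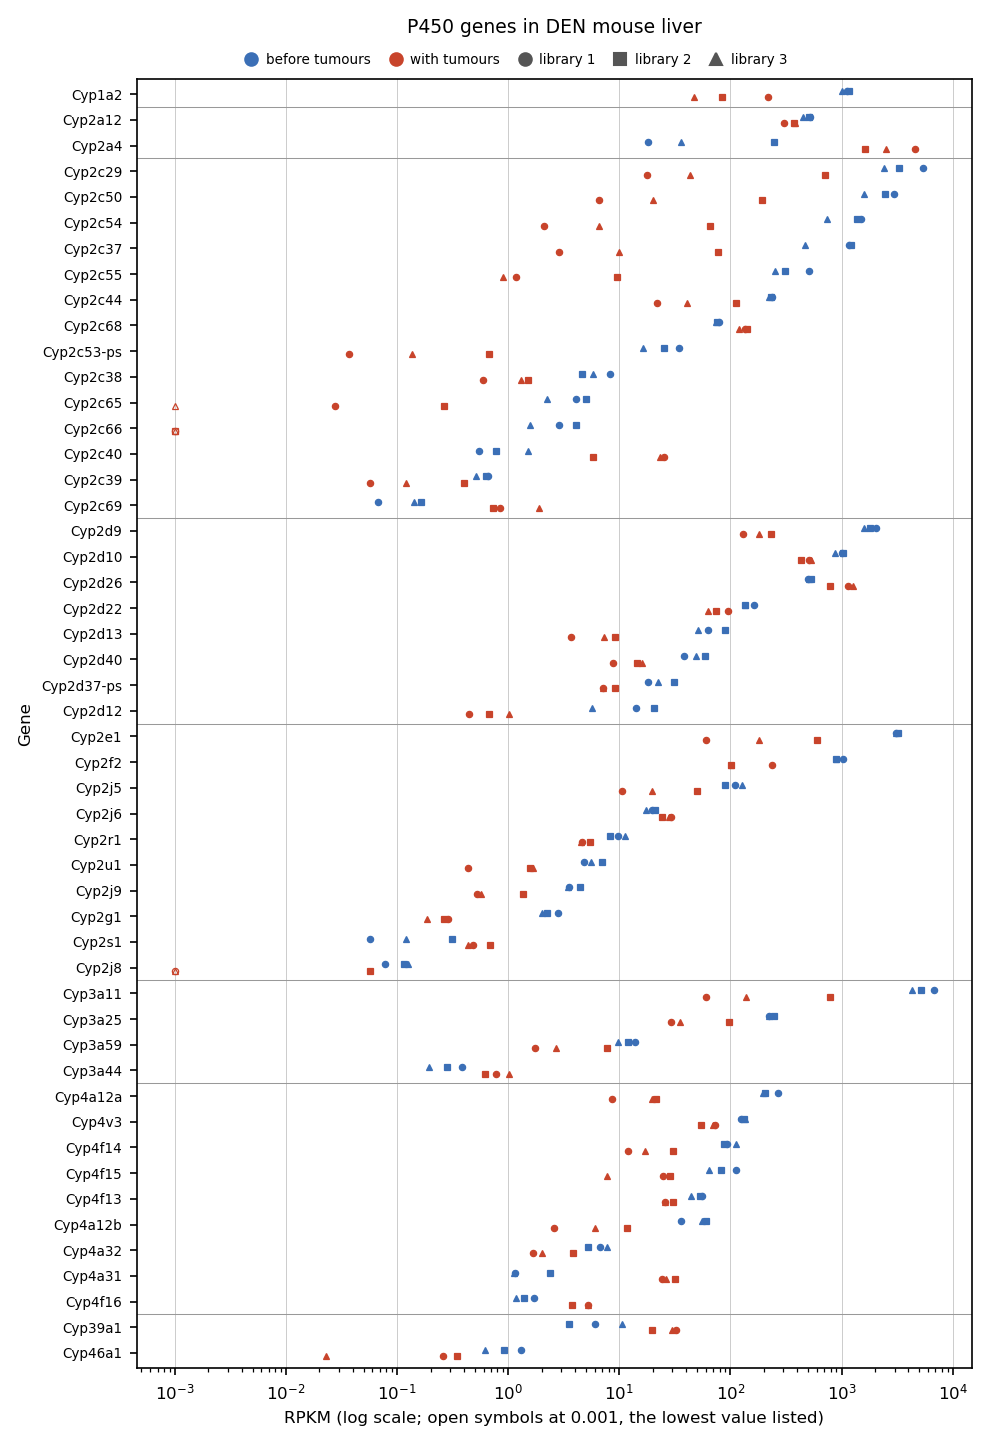
RPKM of the 50 P450 genes listed in the DEN table, on a log axis, with 1 symbol per library before (blue) and with tumours (red) and genes grouped by subfamily. Blue and red symbols do not overlap in any row; the red symbols of Cyp2c and Cyp3a genes spread widely, and library 2 with tumours (square) is the highest of the red symbols in 28 of the 39 genes that are lower with tumours.

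The summed RPKM of all 50 members was 29397, 24965 and 19842 in libraries 1 to 3 before tumours and 7889.8, 6885 and 6033 with tumours. Cyp2a4 made up 0.0616%, 0.985% and 0.182% of that sum before tumours and 58.4%, 23.6% and 41.8% with tumours. The other 49 members together were 6.13-fold lower with tumours. By subfamily the sums were 14.8-fold lower for Cyp2c, 14.6-fold for Cyp3a, 9.47-fold for Cyp1, 3.41-fold for Cyp4 and 1.94-fold for Cyp2d, and 5.49-fold higher for Cyp2a. Without library 2 with tumours, a setting chosen after the data were seen, the sums were 36.9-fold lower for Cyp2c and 42.1-fold for Cyp3a, so that their order turned, and without library 1 with tumours that of Cyp1 was 16.8-fold lower. These sums are led by the few most abundant genes of each subfamily.

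Among the Cyp2c genes, which oxidise drugs, steroids and arachidonic acid, 10 fell and 2 rose of 12 tested, with 14 listed. Cyp2c29, a CAR-inducible arachidonic acid epoxygenase and the most abundant of them, had 5379.7, 3296 and 2413 RPKM before tumours and 17.7, 714 and 43.2 with tumours in libraries 1 to 3 (log2 fold change -5.38 ± 1.26, adjusted p = 0.0409). Library 2 with tumours kept far more of it than libraries 1 and 3, and the call was lost when any library except library 2 with tumours was left out (adjusted p from 0.0982 to 0.330). It was also lost with a pseudocount of 0.1, a filter of 5 RPKM or quantile normalization (adjusted p = 0.0554, 0.0673 and 0.111).

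Cyp2c54, the largest fall of the subfamily, had 1504, 1368 and 737 RPKM before tumours and 2.08, 66.2 and 6.62 with tumours (log2 fold change -6.63 ± 1.06, adjusted p = 0.0102). The library values of Cyp2c55, an enzyme that CAR and PXR activators induce, were 507, 312 and 251 RPKM before tumours and 1.16, 9.54 and 0.889 with tumours (log2 fold change -6.61 ± 0.67, adjusted p = 0.00192). For Cyp2c50 they were 2961, 2455 and 1597 RPKM before tumours and 6.56, 191 and 20.0 with tumours (log2 fold change -6.18 ± 1.09, adjusted p = 0.0147). In all of these genes every tumour library was far below the lowest earlier library, and library 2 with tumours was the highest of its group. The call of Cyp2c54 was lost without library 3 with tumours (adjusted p = 0.124), and that of Cyp2c50 without library 1 or 2 before tumours or library 3 with tumours (adjusted p from 0.0521 to 0.160); that of Cyp2c55 held without each library in turn. A further 6 Cyp2c members fell, with log2 fold changes from -1.75 to -5.87, among them Cyp2c37, the pseudogene Cyp2c53-ps and Cyp2c66. Cyp2c66 was listed at 0.001 in all 3 tumour libraries, against 2.86, 4.05 and 1.57 RPKM before. Like Cyp2c65 and Cyp2c53-ps, it was under 1 RPKM in every tumour library and passed the filter through the earlier libraries alone. Cyp2c39, under the filter, had 0.659, 0.629 and 0.511 RPKM before tumours and 0.0574, 0.402 and 0.119 with tumours.

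The higher Cyp2c members were Cyp2c40, Cyp2c68 and Cyp2c69. Cyp2c40, an arachidonic acid hydroxylase, went from 0.544, 0.774 and 1.50 RPKM to 25.0, 5.84 and 23.1 (log2 fold change 3.10 ± 0.51, adjusted p = 0.0109), and library 2 with tumours was the lowest of its group. Without library 3 with tumours its adjusted p was 0.0687. Cyp2c68 had 78.6, 75.7 and 73.4 RPKM before tumours and 136, 141 and 119 with tumours, a rise of 1.74-fold (log2 fold change 0.79 ± 0.14, adjusted p = 0.00795), with little spread in either group. Cyp2c69 had 0.0675, 0.165 and 0.143 RPKM before tumours and 0.843, 0.731 and 1.87 with tumours and was under the filter. In the reference annotation these 3 genes lie next to each other in the mouse Cyp2c cluster on chromosome 19, between Cyp2c67, which was not listed, and Cyp2c37, which fell. They are near-identical: Cyp2c68 shares 98.1% of aligned coding bases with Cyp2c40, and Cyp2c69 shares 97.9% with it. How the authors assigned reads to such copies is not given in the sources used here, so the split among them is uncertain.

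**Figure D2:**
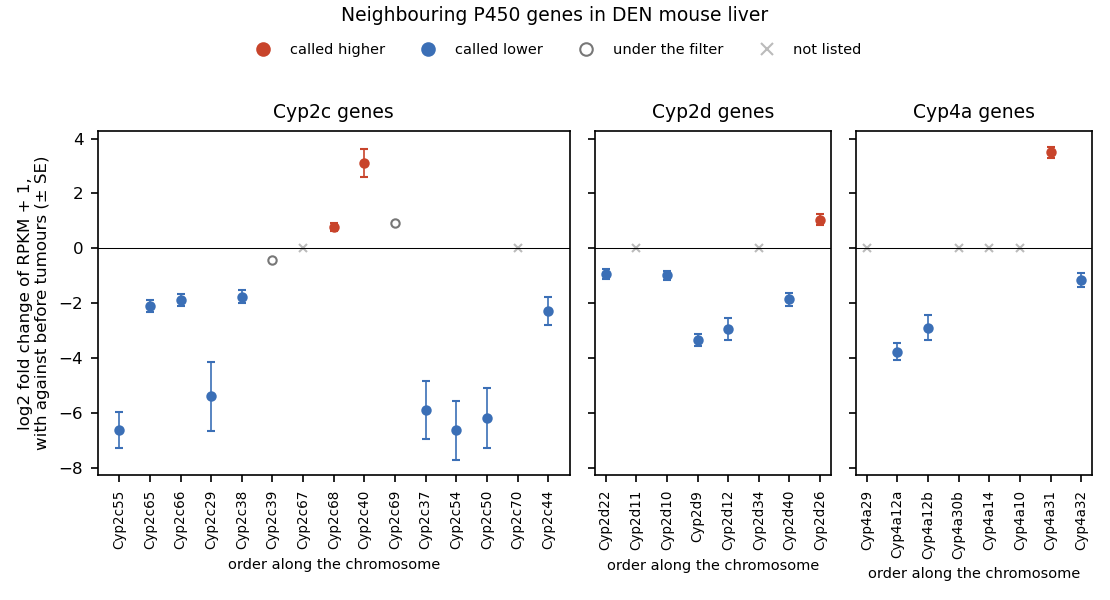
Log2 fold change of RPKM + 1 with its standard error for mouse Cyp2c, Cyp2d and Cyp4a genes, placed in their order along the chromosome. Red points were called higher and blue points lower, open circles were under the filter and show the difference of log2 means, and crosses on the zero line are genes without a listed value; the higher Cyp2c genes are neighbours, and Cyp2d26 and Cyp4a31 stand above 0 beside lower genes of their own clusters.

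All Cyp3a genes that passed the test fell. Cyp3a11, the main drug-oxidising Cyp3a enzyme of mouse liver, was the most abundant member before tumours. It had 6802, 5214 and 4281 RPKM before tumours and 60.8, 794 and 139 with tumours (log2 fold change -4.81 ± 0.86, adjusted p = 0.0155), a 16.4-fold lower mean, and library 2 with tumours was again the highest of its group. Cyp3a25 had 220.3, 248 and 222 RPKM before tumours and 29.3, 96.1 and 34.9 with tumours (log2 fold change -2.29 ± 0.41, adjusted p = 0.0132). Cyp3a59 had 13.8, 11.9 and 9.67 RPKM before tumours and 1.75, 7.68 and 2.69 with tumours and did not pass (adjusted p = 0.0589). The calls of Cyp3a11 and Cyp3a25 were lost without library 1 or 2 before tumours or library 3 with tumours, that of Cyp3a25 also without library 3 before tumours, with adjusted p up to 0.164 and 0.0608; with quantile normalization that of Cyp3a25 was lost too (adjusted p = 0.0873). Cyp3a44, a gene expressed more in females, was under the filter at 0.380, 0.283 and 0.194 RPKM before tumours and 0.774, 0.615 and 1.01 with tumours, so its means were higher with tumours.

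Cyp1a2, the target of the aryl hydrocarbon receptor that oxidises caffeine and aromatic amines, had 1121, 1175 and 1015 RPKM before tumours and 218, 84.1 and 47.3 with tumours (log2 fold change -3.51 ± 0.50, adjusted p = 0.00596). Here library 1 with tumours was the highest of its group, unlike in most falling members. Cyp2e1, which oxidises ethanol and activates nitrosamines such as DEN, was steady before tumours and scattered afterwards, with 3085, 3209 and 3110.0 RPKM before tumours and 60.9, 597 and 181 with tumours (log2 fold change -4.05 ± 0.74, adjusted p = 0.0166). The adjusted p of Cyp2e1 was 0.0560 to 0.123 when any library except 1 or 2 with tumours was left out. Of the other Cyp2 genes 7 of 8 tested fell, the 6 beside Cyp2e1 with log2 fold changes from -0.87 to -2.81. Cyp2f2, an enzyme that oxidises naphthalene, had 1041, 893 and 897 RPKM before tumours and 235, 100.3 and 101 with tumours (log2 fold change -2.81 ± 0.32, adjusted p = 0.00152), and Cyp2r1, a vitamin D hydroxylase, fell 2.00-fold. Cyp2j6 had 19.5, 21.0 and 17.4 RPKM before tumours and 29.2, 24.0 and 27.9 with tumours and did not pass (adjusted p = 0.0727); with library medians set equal it was called higher (adjusted p = 0.00959). Cyp2s1 was under the filter at 0.0570, 0.312 and 0.121 RPKM before tumours and 0.478, 0.680 and 0.431 with tumours.

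Of 8 Cyp2d genes 7 fell and 1 rose. Cyp2d9, the male-specific steroid hydroxylase, had 2026, 1803 and 1588 RPKM before tumours and 131, 232 and 182 with tumours (log2 fold change -3.34 ± 0.22, adjusted p = 0.000182), with a narrow range in both groups. Cyp2d26 had 499.6, 533 and 505 RPKM before tumours and 1150.5, 795 and 1276 with tumours (log2 fold change 1.04 ± 0.20, adjusted p = 0.0111), and every tumour library was above the highest earlier one. Its adjusted p without library 1 before tumours was 0.0559. The remaining 6 members fell, with log2 fold changes from -0.92 to -3.20, led by Cyp2d13 and Cyp2d12. In the annotation Cyp2d26 closes the mouse Cyp2d cluster on chromosome 15, next to Cyp2d40, which fell from 38.4, 59.5 and 48.8 to 8.75, 14.4 and 16.0 RPKM.

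The Cyp4 genes, fatty acid and leukotriene hydroxylases, gave 7 falls and 2 rises among 9 tested. Cyp4a12a, the male-predominant arachidonic acid hydroxylase, had 268, 206 and 198 RPKM before tumours and 8.60, 21.4 and 19.8 with tumours (log2 fold change -3.76 ± 0.32, adjusted p = 0.000516). Its copy Cyp4a12b, with 98.5% identical coding bases, had 35.7, 60.0 and 55.9 RPKM before tumours and 2.58, 11.6 and 6.00 with tumours (log2 fold change -2.88 ± 0.45, adjusted p = 0.00825), with an adjusted p of 0.0542 without library 3 with tumours. For Cyp4f14 the library values were 92.7, 87.8 and 112 RPKM before tumours and 12.0, 30.4 and 17.1 with tumours (log2 fold change -2.33 ± 0.30, adjusted p = 0.00246). Cyp4a31 rose from 1.14, 2.38 and 1.12 RPKM to 24.1, 31.4 and 26.3 (log2 fold change 3.50 ± 0.20, adjusted p = 9.17e-05), the steadiest of the large rises, and Cyp4f16 from 1.72, 1.39 and 1.18 to 5.21, 3.74 and 5.21 (log2 fold change 1.23 ± 0.16, adjusted p = 0.00188). Both calls held without each library in turn. Cyp4a31 lies beside Cyp4a32, which fell from 6.72, 5.25 and 7.81 to 1.66, 3.86 and 2.02 RPKM (adjusted p = 0.0173; up to 0.0800 without library 1 or 3 before tumours or library 3 with tumours). Cyp4a31 shares 96.6% and Cyp4a32 97.2% of coding bases with Cyp4a10, which was not listed.

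Cyp2a4, a female-predominant steroid hydroxylase, showed the largest rise of any member. It had 18.1, 246 and 36.1 RPKM before tumours and 4606, 1627 and 2525 with tumours in libraries 1 to 3 (log2 fold change 5.57 ± 0.93, adjusted p = 0.0118). The libraries before tumours already differed widely, and library 2 was the highest of them, whereas with tumours library 2 was the lowest. Without library 3 with tumours the adjusted p was 0.127. Cyp2a4 shares 98.4% of its coding bases with Cyp2a5, which was not listed, so reads of the pair may have been divided between them. Cyp2a12, a steroid hydroxylase of the same cluster, had 522, 514 and 452 RPKM before tumours and 303, 371 and 384 with tumours and did not pass (adjusted p = 0.0940). In the remaining families Cyp39a1, an oxysterol hydroxylase expressed more in female liver, had 6.08, 3.52 and 10.6 RPKM before tumours and 32.7, 19.8 and 29.6 with tumours (log2 fold change 1.95 ± 0.35, adjusted p = 0.0128), and its adjusted p was 0.0566 without library 1 before tumours and 0.0589 without library 3 with tumours. Cyp46a1, the cholesterol hydroxylase of brain, was under the filter at 1.29, 0.926 and 0.619 RPKM before tumours and 0.261, 0.348 and 0.0229 with tumours.

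Grouped by known sex bias, all 5 listed male-biased mouse P450 genes of 6 fell: Cyp2d9, Cyp4a12a, Cyp4a12b, Cyp2u1 and Cyp2f2. Of the 14 female-biased genes 6 were listed and 4 tested; Cyp2a4, Cyp2c40 and Cyp39a1 rose, and Cyp2g1 fell from 2.80, 2.25 and 2.03 to 0.287, 0.264 and 0.186 RPKM. By means 5 of the 6 were higher. Of the perivenous list, genes expressed around the central vein, 8 of 11 were listed and all 8 fell: Cyp1a2, Cyp2e1, Cyp3a11 and 5 Cyp2c genes. No list of genes expressed away from the central vein was set beside it. Members outside this list fell as well, among them Cyp2d9 and Cyp2f2. The lists share members and rest on general knowledge, and these counts stand beside the 49.5% of all tested genes that fell.

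The tumour libraries differed among themselves. Library 1 with tumours was the lowest in 27 of the 39 members with lower means and library 2 the highest in 28, while before tumours library 3 was the lowest in 25. Of the 3282 other listed genes with lower means, these libraries held the same place in 53.1%, 59.7% and 50.9%. Among the 11 members with higher means library 2 with tumours was instead the lowest in 8, against 42.2% of the other listed genes with higher means. Set against Alb in the same library, which itself rose (log2 fold change 1.76 ± 0.17, adjusted p = 0.000612), 42 of the 50 members were below every earlier library in every tumour library and 4 overlapped. The 4 that stayed above were Cyp2a4, Cyp2c40, Cyp2c69 and Cyp4a31. A rise of Alb alone lowers every other gene on this scale. No share over all listed genes was computed on it, so these counts have no weight of their own. Cyp2d26 was 2.39, 2.13 and 1.79% of Alb before tumours and 1.34, 1.01 and 1.52% with tumours, so its direction turned on this scale. The hepatocyte marker list, with 5 of 12 genes listed, summed to 61709 to 75413 RPKM before and 151526 to 170659 with tumours; 3 of the 5 rose, and Apoa2 fell. The macrophage list, with 4 of 8, summed to 63.1 to 71.3 and 25.2 to 44.9, with Clec4f called lower and Cd68 called higher. The endothelial list, with 4 of 6, summed to 19.2 to 26.4 and 25.4 to 41.5, and 3 rose while Tie1 fell. The marker lists of cholangiocytes, stellate cells, neutrophils and erythroid cells each had 1 listed gene. Sox9, of cholangiocytes, had 4.36, 4.02 and 2.38 RPKM before and 7.99, 10.9 and 10.7 with tumours and rose (adjusted p = 0.00532). Acta2, of stellate cells, rose from 5.20, 4.05 and 2.76 to 15.2, 11.0 and 19.5 (adjusted p = 0.00346), and Alas2, of erythroid cells, fell from 74.1, 79.9 and 67.8 to 7.21, 15.0 and 6.73 (adjusted p = 0.000670). S100a8, of neutrophils, had 2.44, 1.19 and 2.66 RPKM before and 3.47, 4.18 and 3.89 with tumours and did not pass the test. With library medians set equal or with quantile normalization it was called higher. No marker of T, NK, B or plasma cells was listed. The part of these cells in the P450 differences was not tested.

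Of 18 genes of electron supply to P450 enzymes and of heme synthesis or breakdown, 11 were listed. Of these 10 fell and none rose, against 49.5% of all tested genes that fell and 17.9% that rose. Hmox1, Blvra and Blvrb, which act in heme breakdown, were not among those listed. With library medians set equal 5 fell, and with quantile normalization 2. Por, the P450 reductase, had 395, 304 and 146 RPKM before tumours and 65.2, 61.7 and 48.2 with tumours (log2 fold change -2.15 ± 0.34, adjusted p = 0.00682). Alad, an early enzyme of heme synthesis, had 167, 162 and 139.7 RPKM before tumours and 67.4, 58.8 and 65.0 with tumours (log2 fold change -1.28 ± 0.14, adjusted p = 0.00117). In both the highest tumour library was below the lowest earlier one, and both calls were lost with quantile normalization, at log2 fold changes of -1.38 (adjusted p = 0.0646) for Por and -0.50 (adjusted p = 0.105) for Alad. Alas1, which limits heme synthesis, was not listed.

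Of 24 regulators of P450 genes 11 were listed, of which 10 fell and none rose, beside the same shares of all tested genes; with library medians set equal 4 fell. Nr1i3, which encodes CAR, had 18.2, 19.4 and 15.8 RPKM before tumours and 5.05, 12.6 and 6.47 with tumours (log2 fold change -1.14 ± 0.28, adjusted p = 0.0354), and library 2 with tumours was the highest of its group. That library held this place in most falling P450 genes and in 59.7% of the 3282 other listed genes with lower means. The call of Nr1i3 and its library pattern were not set apart from this general one. The Nr1i3 call was lost without any library except library 2 with tumours (adjusted p up to 0.140). Nr1i2, which encodes PXR, had 23.7, 20.7 and 23.4 RPKM before tumours and 13.3, 15.0 and 12.1 with tumours (log2 fold change -0.71 ± 0.13, adjusted p = 0.0111), and its call was lost without library 1 before or library 3 with tumours (adjusted p up to 0.0529). With library medians set equal the adjusted p was 0.207 for Nr1i3 and 0.375 for Nr1i2. Ahr, the aryl hydrocarbon receptor, had 12.4, 11.5 and 6.00 RPKM before tumours and 0.877, 2.71 and 0.604 with tumours (log2 fold change -2.24 ± 0.37, adjusted p = 0.00962). Hnf4a, a main hepatocyte factor, was not listed.

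Of 12 genes of growth hormone signalling 6 were listed and 5 fell, where 49.5% of all tested genes did. Ghr, the growth hormone receptor, had 98.9, 95.5 and 91.5 RPKM before tumours and 20.6, 35.5 and 12.9 with tumours (log2 fold change -2.12 ± 0.31, adjusted p = 0.00457), and Stat5b, the factor through which it acts on sex-biased P450 genes, had 10.6, 7.21 and 8.31 RPKM before tumours and 3.63, 5.96 and 4.25 with tumours (log2 fold change -0.80 ± 0.19, adjusted p = 0.0310). The call of Stat5b was lost without any library except library 2 with tumours (adjusted p up to 0.128), and with library medians set equal 2 genes of this list fell and 1, Trim24, rose. Of 17 other CAR and PXR targets 11 were listed, 8 fell and 1 rose, where over all tested genes 49.5% fell and 17.9% rose. With quantile normalization 6 fell and 1 rose. The drug transporter gene Abcb1a rose from 0.480, 0.393 and 0.700 to 1.88, 2.56 and 2.12 RPKM (log2 fold change 1.06 ± 0.13, adjusted p = 0.00176), whereas the carboxylesterase gene Ces2a fell from 1272, 1005 and 720.5 to 43.1, 72.5 and 22.4 (log2 fold change -4.52 ± 0.42, adjusted p = 0.00104).

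The second comparison set Morris hepatoma against untreated ACI liver. P450 genes typical of hepatocytes were far lower in the hepatoma by means, with a wide spread among the 4 tumour libraries, and a few members were higher. Of 37 listed members 35 passed the filter of 1 RPKM in at least 3 libraries; 21 fell, 5 rose and 9 did not pass the test. Over all 8233 tested genes 8.73% fell and 85.5% rose. By means 30 members were lower and 7 higher. The groups did not overlap in 36 of the 37, against 11.4% of all listed genes downward and 86.9% upward; in Cyp2c22 they overlapped. The median log2 fold change was -4.47 for the members and 1.58 for all tested genes, and with library medians set equal -6.13 and -0.08. That scaling gave 28 falls and no rise among the members and moved the calls over all genes from 7042 higher and 719 lower to 2029 and 2389. Its medians were taken over tested genes of a preselected table in which 7973 of 9082 listed genes were higher. It therefore lowers the log2 fold change of every gene by the same amount. Calls under it are relative to these selected genes.

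The count of falls dropped when any 1 control library or hepatoma library 1 was left out. It was 3 without control library 1 or 2, 11 without control library 3 and 5 without hepatoma library 1, and 10 with a pseudocount of 0.1, although no member changed direction in these fits. Control library 3 was the lowest control library in 28 of the 30 lower members, and in 77.6% of the 1079 other listed genes with lower means. Hepatoma library 2 was the lowest hepatoma library in 25 of these 30 and was under 1 RPKM in 24, while hepatoma library 3 was the highest in 24. Among the other lower genes these shares were 57.8% for library 2 as the lowest and 82.5% for library 3 as the highest.

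**Figure D3:**
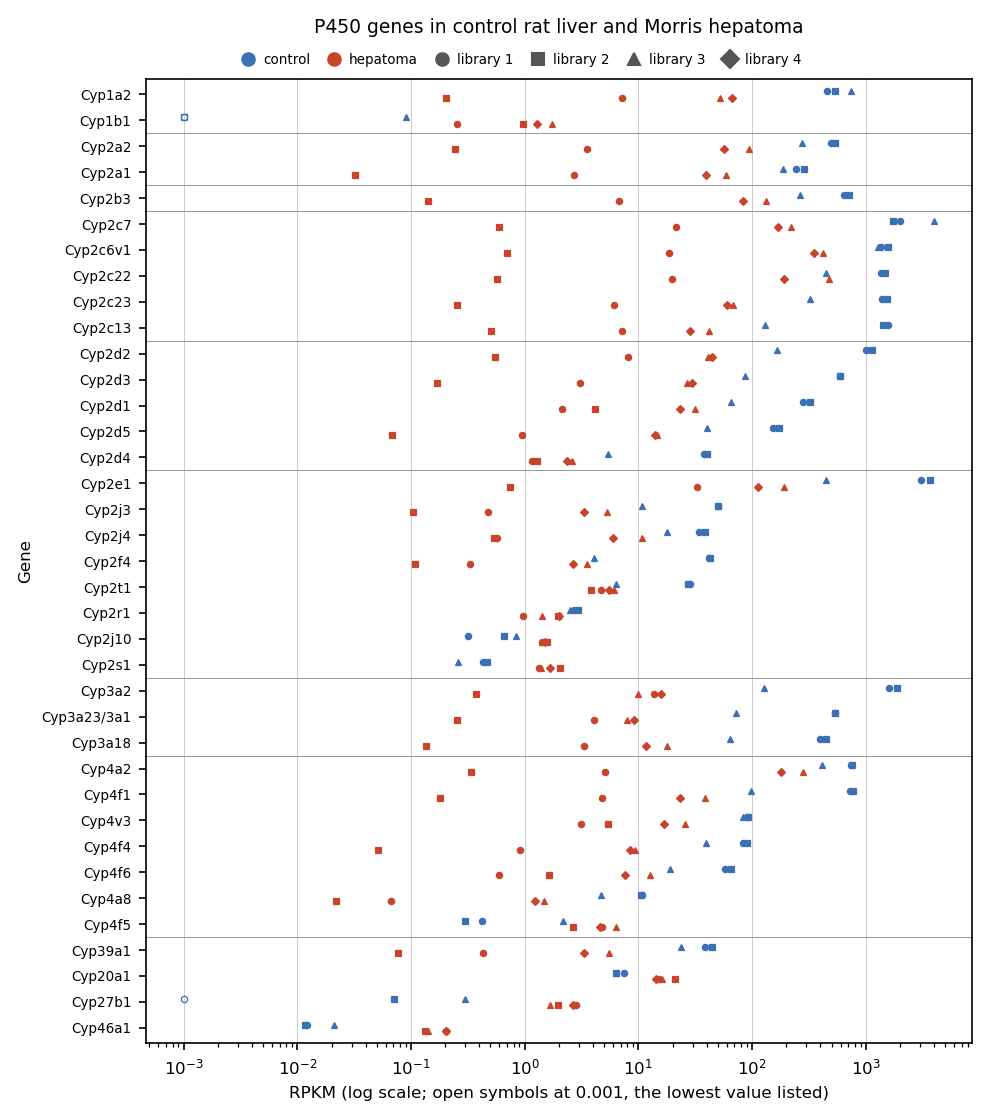
RPKM of the 37 P450 genes listed in the Morris hepatoma table, on a log axis, with 1 symbol per library in control liver (blue) and hepatoma (red). Hepatoma library 2 (square) is the lowest red symbol in 25 of the 30 lower genes, hepatoma library 3 (triangle) the highest in 24, and control library 3 (blue triangle) the lowest blue symbol in 28.

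All 3 listed Cyp3a genes fell, and their summed RPKM was 80.1-fold lower in the hepatoma by group means, the largest difference of any subfamily. The sums were 2523, 2863 and 264 in control libraries 1 to 3 and 21.2, 0.767, 35.6 and 36.6 in hepatoma libraries 1 to 4. This rank therefore rests on control libraries 1 and 2. Cyp3a2, a male-predominant steroid and drug hydroxylase, had 1594, 1877 and 128 RPKM in control libraries 1 to 3 and 13.8, 0.376, 9.85 and 15.8 in hepatoma libraries 1 to 4 (log2 fold change -6.54 ± 1.38, adjusted p = 0.0128), the largest fall of all members. Control library 3 was far below the other controls, yet above all hepatoma libraries. Cyp3a23/3a1, the steroid-inducible member, had 533, 535 and 72.4 RPKM in control liver and 4.04, 0.255, 8.00 and 9.23 in hepatoma (log2 fold change -5.81 ± 1.09, adjusted p = 0.00772), and Cyp3a18, a male-predominant one, 396, 452 and 63.7 RPKM in control liver and 3.35, 0.136, 17.7 and 11.6 in hepatoma (log2 fold change -5.28 ± 1.25, adjusted p = 0.0207). The call of Cyp3a2 was lost without control library 1 or 2 (adjusted p = 0.0632 and 0.0617) and that of Cyp3a18 without either of these or hepatoma library 1 (up to 0.0938); Cyp3a23/3a1 held without each library in turn.

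The 5 rat Cyp2c genes were all lower by means, and 2 passed the test. Cyp2c7, a female-predominant enzyme of retinoid metabolism, was the most abundant, with 1996, 1741 and 4024 RPKM in control liver and 21.6, 0.600, 218 and 170.1 in hepatoma (log2 fold change -6.14 ± 1.87, adjusted p = 0.0560). Cyp2c13, a male-specific steroid hydroxylase, had 1562, 1429.8 and 130.0 RPKM in control liver and 7.12, 0.508, 41.7 and 28.5 in hepatoma (log2 fold change -5.90 ± 1.54, adjusted p = 0.0310). Control library 3 was therefore the highest control for Cyp2c7 and the lowest for Cyp2c13. Cyp2c23, an arachidonic acid epoxygenase, had 1388, 1529 and 320.5 RPKM in control liver and 6.13, 0.252, 67.9 and 60.8 in hepatoma (log2 fold change -5.98 ± 1.66, adjusted p = 0.0393). The calls of Cyp2c13 and Cyp2c23 were lost without control library 1 or 2 or hepatoma library 1, that of Cyp2c23 also without control library 3 (adjusted p up to 0.130 and 0.151).

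To show the start regions of the genes that set control library 3 apart and of the gene with the largest fall, the 200 bases before the start site of Cyp2c7, Cyp2c13 and Cyp3a2 are printed here from RefSeq, build GRCr8. Capitals mark matches, on either strand, to any of 4 motifs. The TATA box was searched as TATAAA. The core of the site of HNF6, a liver-enriched factor, was searched as ATTGAT. The core of an HNF4A site was searched as CAAAGTCC. The STAT5 element was searched as TTCNNNGAA.
Cyp2c7 (chr1:247966194-247966393, plus strand): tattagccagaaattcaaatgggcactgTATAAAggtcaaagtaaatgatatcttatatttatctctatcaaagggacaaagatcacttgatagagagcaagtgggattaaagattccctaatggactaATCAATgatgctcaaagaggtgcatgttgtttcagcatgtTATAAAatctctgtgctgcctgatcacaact
Cyp2c13 (chr1:248787189-248787388, minus strand): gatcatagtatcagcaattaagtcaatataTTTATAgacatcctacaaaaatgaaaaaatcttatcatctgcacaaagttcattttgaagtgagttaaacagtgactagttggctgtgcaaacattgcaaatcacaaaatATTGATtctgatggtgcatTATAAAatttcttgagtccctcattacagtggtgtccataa
Cyp3a2 (chr12:14343858-14344057, minus strand): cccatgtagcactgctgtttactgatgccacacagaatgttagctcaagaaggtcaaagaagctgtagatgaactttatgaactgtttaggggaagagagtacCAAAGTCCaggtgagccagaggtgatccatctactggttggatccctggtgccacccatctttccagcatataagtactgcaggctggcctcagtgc
The TATA box nearest to the start lay 31 bases before it in Cyp2c7 and 41 bases before it in Cyp2c13, and each also held an HNF6 core. Cyp3a2 held an HNF4A core 97 bases before the start. Promoters were found for 34 of 38 rat members. Over 250 bases before the start, the TATA box was in 29.4% of these and 12.9% of all 33469 RefSeq promoters. The HNF6 core was in 11.8% and 7.1%, the HNF4A core in 5.9% and 1.1%, and the STAT5 element in 11.8% and 7.7%. A match describes letters only, and the reference strain is not ACI.

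Cyp1a2 also had its highest control value in library 3, with 457, 532 and 737 RPKM in control liver and 7.18, 0.203, 51.9 and 67.1 in hepatoma (log2 fold change -5.36 ± 1.53, adjusted p = 0.0438; adjusted p from 0.123 to 0.160 without any 1 control library or hepatoma library 1). Cyp2e1 had 3045, 3687 and 451 RPKM in control liver and 32.5, 0.740, 189.9 and 114 in hepatoma and did not pass (adjusted p = 0.0744), and its lowest control value was library 3. The Cyp2d genes fell in 5 of 5, with log2 fold changes from -2.95 to -5.49. Cyp2d2, which hydroxylates debrisoquine, had 997, 1139.8 and 165 RPKM in control liver and 8.06, 0.547, 40.8 and 44.3 in hepatoma (log2 fold change -5.49 ± 1.47, adjusted p = 0.0345; up to 0.140 without any 1 control library or hepatoma library 1). Of the Cyp2a and Cyp2b genes, which hydroxylate testosterone and drugs, none passed the test. Cyp2a2, a male-specific testosterone hydroxylase, had 498, 538 and 274 RPKM in control liver and 3.54, 0.242, 93.9 and 56.8 in hepatoma (adjusted p = 0.0825), and Cyp2b3 had 649.8, 713 and 265 RPKM in control liver and 6.72, 0.140, 132 and 82.9 in hepatoma (adjusted p = 0.121).

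Among 7 Cyp4 genes 5 fell, 1 rose and 1 did not pass. Cyp4f1, a leukotriene and fatty acid hydroxylase, had 723, 769.9 and 98.8 RPKM in control liver and 4.77, 0.180, 38.2 and 23.1 in hepatoma (log2 fold change -5.41 ± 1.49, adjusted p = 0.0384), and Cyp4f4 83.5, 89.7 and 39.0 RPKM in control liver and 0.912, 0.0516, 9.30 and 8.49 in hepatoma (log2 fold change -4.17 ± 0.98, adjusted p = 0.0198). Cyp4v3, also a fatty acid hydroxylase, had 91.0, 91.4 and 83.2 RPKM in control liver and 3.14, 5.36, 25.8 and 16.6 in hepatoma (log2 fold change -3.08 ± 0.67, adjusted p = 0.0116). Without any 1 control library these calls were lost, and those of Cyp4f1 and Cyp4f4 also without hepatoma library 1 (adjusted p up to 0.153 for Cyp4f1, 0.0861 for Cyp4f4 and 0.0602 for Cyp4v3). Cyp4a2, the male-predominant fatty acid hydroxylase, had 741, 754 and 409 RPKM in control liver and 5.08, 0.334, 281 and 179 in hepatoma and did not pass (adjusted p = 0.219). Cyp39a1 fell from 38.4, 44.1 and 23.7 RPKM to 0.429, 0.0770, 5.51 and 3.34 (log2 fold change -3.78 ± 0.71, adjusted p = 0.00639), and this call held without each library in turn.

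The 5 members that rose had at most 7.45 RPKM in control liver. Cyp27b1, Cyp2s1 and Cyp2j10 were under 1 RPKM in every control library, so they passed the filter through the hepatoma libraries alone. They could have entered the test only as rises. Cyp27b1, the vitamin D activating hydroxylase best known from kidney, had 0.001, 0.0716 and 0.301 RPKM in control liver and 2.80, 1.97, 1.68 and 2.66 in hepatoma (log2 fold change 1.54 ± 0.17, adjusted p = 4.56e-05). Cyp4f5 had 0.425, 0.297 and 2.19 RPKM in control liver and 4.77, 2.66, 6.33 and 4.55 in hepatoma (log2 fold change 1.58 ± 0.35, adjusted p = 0.00684), and Cyp2s1, an enzyme found mainly outside the liver, 0.428, 0.462 and 0.257 RPKM in control liver and 1.33, 2.04, 1.39 and 1.68 in hepatoma (log2 fold change 0.91 ± 0.15, adjusted p = 0.000558). With library medians set equal these 3 log2 fold changes were -0.12, -0.08 and -0.75, so the direction depends on the scaling, and Cyp2s1 was then called lower. Because most listed genes were higher, that scaling lowers every gene here by the same amount. Cyp20a1, whose substrate is unknown, had 7.45, 6.39 and 6.42 RPKM in control liver and 15.2, 20.9, 16.2 and 14.4 in hepatoma, and Cyp2j10 0.319, 0.652 and 0.841 RPKM in control liver and 1.42, 1.58, 1.42 and 1.51 in hepatoma. Their log2 fold changes were 1.18 and 0.64, and -0.48 and -1.02 with library medians set equal, where Cyp2j10 was called lower. No member was called higher with that scaling or with quantile normalization. Cyp2j10 had an adjusted p of 0.0522 without control library 1. Cyp1b1, an extrahepatic target of the aryl hydrocarbon receptor, was under the filter, with 0.001, 0.001 and 0.0898 RPKM in control liver and 0.253, 0.965, 1.73 and 1.28 in hepatoma.

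Set against Alb in the same library, none of the 37 members was lower than every control library in every hepatoma library. On this scale 27 overlapped and 10 were higher. Alb itself was lower in every hepatoma library than in every control library, which alone raises every other gene on this scale. Cyp2r1 and Cyp2t1, called lower in RPKM, were among the 10. No share over all listed genes was computed for the counts on this scale. Cyp2c6v1 was 2.04, 2.61 and 2.68% of Alb in control and 3.22, 3.68, 3.86 and 3.23% in hepatoma libraries 1 to 4. Cyp2e1 was 4.53, 6.12 and 0.937% and 5.66, 3.90, 1.74 and 1.04%, and Cyp3a2 2.37, 3.11 and 0.265% and 2.40, 1.98, 0.0900 and 0.144%. For Cyp2e1 and Cyp3a2, hepatoma libraries 1 and 2 lay near control libraries 1 and 2 on this scale, and hepatoma libraries 3 and 4 near control library 3 or below it. Of the 30 lower members, 24 had control library 3 below the other controls, 21 had hepatoma libraries 3 and 4 both below 1 and 2, and 17 had both. The hepatocyte marker list, with 9 of 12 genes listed, summed to 124101, 113247 and 89418 RPKM in the controls and 1154, 104.5, 24643 and 21454 in the hepatomas. The stellate and fibroblast list, with 4 of 6, ranged from 16.8 to 71.5 in the controls and from 353 to 913 in the hepatomas, and the endothelial list, with 3 of 6, from 8.34 to 15.3 and from 54.4 to 84.5. Of the cholangiocyte list Spp1 alone was listed, at 0.578 to 1.33 in the controls and 182 to 265 in the hepatomas. The macrophage list, with 3 of 8, summed to 109 to 133 in the controls and 121 to 164 in the hepatomas. In it Cd68 and Cd163 rose, and Clec4f, a Kupffer cell marker, fell from 79.0, 91.9 and 70.2 to 6.39, 6.02, 26.8 and 25.0 RPKM. The T cell gene Cd3g rose from 0.0478, 0.001 and 0.168 to 1.81, 6.26, 1.83 and 3.15. The part of the cell mixture in the falls was not tested.

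**Figure D4:**
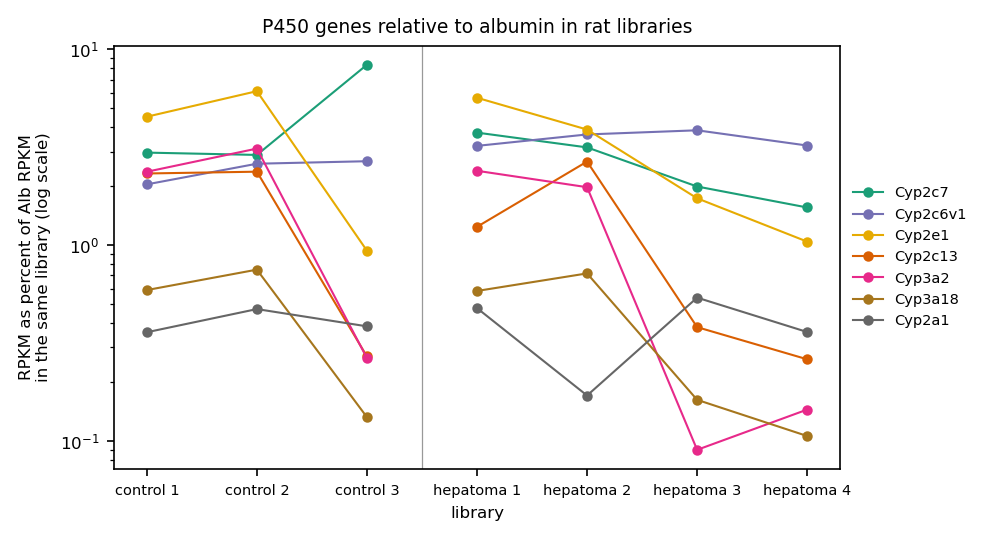
RPKM of 7 P450 genes as a percent of Alb RPKM in the same library, on a log axis, for 3 control and 4 hepatoma libraries; lines join libraries of a group only to guide the eye. Cyp3a2 is at 2.37, 3.11 and 0.265% in the controls and at 2.40, 1.98, 0.0900 and 0.144% in the hepatomas, and Cyp2c6v1 stays between 2.04% and 3.86% in all 7 libraries. All 7 genes are under 1 RPKM in hepatoma library 2, where the ratios rest on values near the floor.

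Of the 6 male-biased rat P450 genes 5 were listed and all were lower by means; Cyp2c13, Cyp3a2 and Cyp3a18 fell, and Cyp2a2 and Cyp4a2 did not pass. Both listed female-biased genes of 4, Cyp2c7 and Cyp2a1, were lower by means and did not pass. The partner genes split. Of 8 listed electron donor and heme genes 4 rose and 4 fell, and with library medians set equal none rose and 6 fell. Those that rose included Hmox1, which acts in heme breakdown. Por rose from 46.3, 48.0 and 52.3 to 62.8, 72.2, 67.9 and 75.3 RPKM (log2 fold change 0.50 ± 0.17, adjusted p = 0.0440), but with library medians set equal it fell (log2 fold change -1.16), and its call was lost without any library except control library 3 (adjusted p up to 0.188). Cyb5a, the cytochrome that passes electrons to some P450 enzymes, fell from 943, 1107 and 411 to 45.6, 48.7, 185 and 125 (log2 fold change -3.14 ± 0.60, adjusted p = 0.00430).

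Of 11 listed regulators 10 were tested, 4 rose and 2 fell; with library medians set equal 1 rose and 7 fell. Ahr rose from 4.04, 6.89 and 4.17 to 35.5, 32.2, 25.3 and 33.5 RPKM (log2 fold change 2.45 ± 0.21, adjusted p = 7.77e-06). Nr1i2, encoding PXR, had 33.5, 44.1 and 44.3 RPKM in control liver and 0.688, 0.0232, 18.7 and 13.4 in hepatoma and did not pass (adjusted p = 0.128). Of 10 listed genes of growth hormone signalling 6 rose and 4 fell, or 1 and 6 with library medians set equal. Ghr had 135, 139 and 56.4 RPKM in control liver and 1.25, 0.908, 21.1 and 8.92 in hepatoma (log2 fold change -4.22 ± 1.02, adjusted p = 0.0222), a call lost without any 1 control library or hepatoma library 1 (adjusted p up to 0.0941). Of 11 listed other CAR and PXR targets 2 rose and 6 fell, or none and 9 with that scaling. These counts stand beside the 85.5% of all tested genes that rose and the 8.73% that fell.

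The third comparison set regenerating against untreated liver, and hardly any P450 gene was listed. None of the Cyp1, Cyp2 or Cyp3 genes was among the 2093 genes with a deposited p-value under 0.05, and the absence of a listed value does not show that they were unchanged. The 3 listed members were Cyp4v3, Cyp4b1 and Cyp46a1. Cyp4b1, which activates lung toxins, had 3.01, 2.17 and 2.88 RPKM in control liver and 6.28, 4.09, 4.14 and 6.52 in regenerating liver in libraries 1 to 4; the groups did not overlap and the test was not passed (log2 fold change 0.75 ± 0.17, adjusted p = 0.0678). Cyp4v3 had 91.0, 91.4 and 83.2 RPKM in control liver and 65.8, 70.4, 71.3 and 82.8 in regenerating liver (log2 fold change -0.29 ± 0.12, adjusted p = 0.635), and its highest regenerating library lay just under the lowest control. Cyp46a1, under the filter, had 0.0121, 0.0118 and 0.0212 RPKM in control liver and 0.0306, 0.116, 0.0676 and 0.0663 in regenerating liver. With limma 0 of the 2 tested members were called. Both had an unadjusted p under 0.05 in that test. Listing itself required such a p in an unadjusted test of the same libraries, so this has no weight of its own. Over all 1703 tested genes 21.2% rose and 0.763% fell, and groups did not overlap in 87.4% of listed genes upward and 5.4% downward. Por, the reductase of the P450 enzymes, rose from 46.3, 48.0 and 52.3 to 91.5, 104, 119 and 91.4 RPKM (log2 fold change 1.03 ± 0.14, adjusted p = 0.0109). Of the 5 listed electron donor and heme genes the other 4 did not pass, and of 2 listed regulators Rxra, the partner of CAR and PXR, rose (log2 fold change 0.75 ± 0.16, adjusted p = 0.0485). The call of Por was lost without control library 1 or 2 (adjusted p = 0.0742 and 0.0570) and that of Rxra without any library except control library 3 (up to 0.218). With library medians set equal neither passed, and Cyp4v3 was called lower. Of the 2093 listed genes 1965 were higher, so that scaling lowers every log2 fold change.

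**Figure D5:**
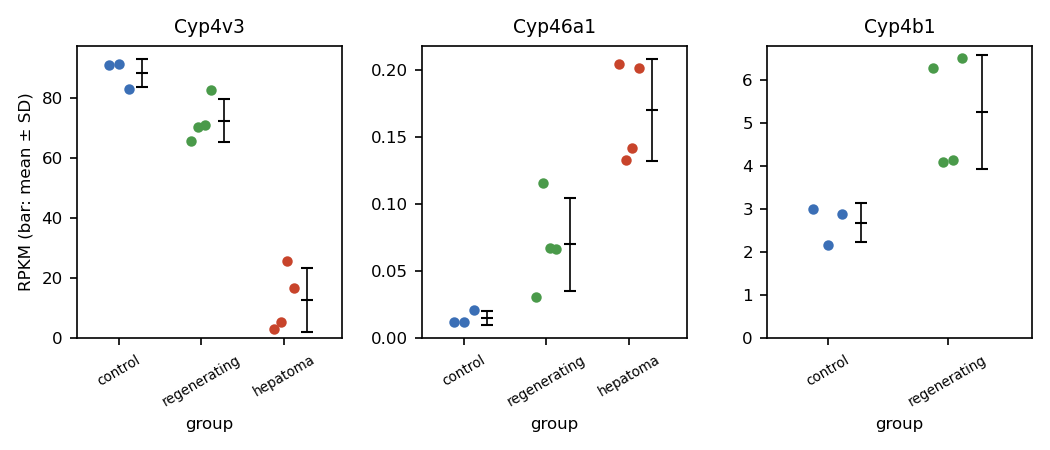
RPKM on linear axes from 0 for the 3 P450 genes of the regenerating table, with 1 point per library and a bar at the mean ± SD, and hepatoma libraries added where the gene is in both rat tables. Cyp4v3 is 83.2 to 91.4 in control, 65.8 to 82.8 in regenerating liver and 3.14 to 25.8 in hepatoma; Cyp46a1 stays at or under 0.205 in all libraries.

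The hepatoma and regenerating liver were compared directly in genes listed in both rat tables, which share their controls. Cyp4v3 was lower in hepatoma than in regenerating liver (log2 difference -2.79 ± 0.52, adjusted p = 0.00727), with every hepatoma library below every regenerating one. Over the 1673 genes tested 4.72% were lower and 81.5% higher, and of the 1752 genes that both rat tables list, 5.82% were lower and 83.4% higher in every hepatoma library than in every regenerating one. The call held under all alternatives run, with adjusted p from 0.000313 to 0.0344. Cyp46a1 was under the filter in this comparison; it stood at 0.205, 0.133, 0.142 and 0.202 RPKM in hepatoma and 0.0306, 0.116, 0.0676 and 0.0663 in regenerating liver.

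Only 7 symbols were listed for both the mouse and the rat tumours. Cyp1a2, Cyp2e1, Cyp2r1 and Cyp4v3 had lower means in both, and Cyp2s1 had higher means in both. Cyp39a1 was 4.06-fold higher in DEN liver with tumours and 15.1-fold lower in Morris hepatoma. Cyp46a1 was 4.49-fold lower in the DEN model and 11.4-fold higher in the hepatoma, at low levels in every library of both. The models differ in species, agent and control group, and the difference between them was not tested.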

How the data were processed

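The authors deposited 3 tables with values per library that were read as RPKM, since the deposited headers name no unit, and the group means and log2 ratios of these. The log2 columns and the deposited p-values were not used, although each table lists only genes whose deposited p-value is under 0.05. The aligner, genome build, annotation and counting are not given in the sources used here. RNA was taken from samples with a RIN above 7, per the labels.

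The two-sided moderated test of limma 3.58.1 (R 4.3.3), with a mean-variance trend and robust estimation, was run on log2(RPKM + 1). Genes entered it when they reached 1 RPKM in at least 3 libraries, the size of the smaller group (4 for hepatoma against regenerating liver). A gene under 1 RPKM in all libraries of 1 group could enter only through the other group, which in effect fixed its direction. Each fit took all tested genes of the table and the libraries of its 2 groups, and hepatoma against regenerating liver took all 3 rat groups on genes listed in both rat tables. Because the tables are preselected, Benjamini-Hochberg adjustment took as its number of tests the 21951 protein-coding mouse genes of GENCODE M21 or the 23154 rat ones of RefSeq GRCr8, and calls had an adjusted p under 0.05. Preselection can still make adjusted p-values too small. The procedure was also run on simulated data with far fewer changed genes than the DEN and hepatoma tables list. That run does not show the rate of false calls in these tables.

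Members and lists were chosen with earlier results of these data known. Named in full were, in each subfamily, the most abundant gene and the largest rise and fall (3 falls in Cyp2c, Cyp3a and Cyp4), every DEN rise and every gene in both rat tables; other names, such as Cyp1b1 and Cyp2f2, and the partner genes were picked after their values were seen. Of 90 member rows 87 matched the reference by gene ID or symbol. Coding identity was computed with Biopython 1.88 from the longest open reading frames of GENCODE M21 transcripts, aligned over at least 90%, and rat copies were not compared. Promoters came from RefSeq (GRCr8). Alternatives were another pseudocount (0.1), filter (none or 5 RPKM), scaling, spread estimate and number of tests, the replicate number as a block and leaving out each library. Counts, sums and figures used Python 3.11.15, numpy 2.4.6, pandas 2.3.3 and matplotlib 3.10.9.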

Additional observations from a re-analysis of the deposited data

Results flagged for a closer look

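Cyp4v3 differed in its change against control between the hepatoma and regenerating liver, by -2.79 on the log2 scale, in the test of the difference itself. Cyp39a1 had 4.06 times the mean RPKM with tumours in the DEN model and 0.0660 times the control mean in the Morris hepatoma, with every library of each tumour group beyond its own controls. Cyp46a1 had 0.222 times the mean with tumours in the DEN model and 11.4 times the control mean in the hepatoma, at levels under the filter. The difference between the models was not tested for either gene.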

How the results depend on the processing

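Leaving out each library gave 4 to 8 rises and 23 to 35 falls among the DEN members, with 4 rises without library 3 with tumours, and 5 to 6 rises and 3 to 22 falls in the Morris hepatoma, with the falls at 3 without control library 1 or 2. The falls in the hepatoma were 10 with a pseudocount of 0.1 and 1 with all 3 rat groups in 1 fit, where a single member was tested. The rises there were 1 with a filter of 5 RPKM and 0 with library medians set equal, with quantile normalization and with all 3 rat groups. For regenerating liver 1 member was called lower with library medians set equal, with quantile normalization and with adjustment over the tested genes alone, which also gave 1 rise. Directions turned for Cyp2a12 (0.31) and Cyp2d10 (0.058) in the DEN model with quantile normalization and, in the hepatoma, with library medians set equal for Cyp27b1 (-0.12), Cyp4f5 (-0.078), Cyp2s1 (-0.75), Cyp20a1 (-0.48) and Cyp2j10 (-1.02) and with quantile normalization for Cyp2s1 (-0.47), Cyp20a1 (-0.45) and Cyp2j10 (-0.79). The cause was not tested. Of 19 named DEN genes with a call 11 lost it without at least 1 library, and 9 of 14 in the hepatoma.

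The titles share replicate numbers, and libraries of the same number did not deviate together in every pair (correlations from -0.16 to -0.02 in the DEN table), so the numbers were not taken as pairs. With the replicate block 6 members rose and 28 fell in the DEN model, where the call of Cyp2a4 was among those lost (adjusted p = 0.191), 5 rose and 4 fell in the hepatoma, 0 were called in regenerating liver, and Cyp4v3 stayed lower in hepatoma than in regenerating liver. RPKM without known depth gives no counting error, which limits values under 1 RPKM most.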
